A study of Homo sapiens with 6 samples.

Results

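The genes described here write, maintain and remove cytosine methylation in DNA: the DNA methyltransferases DNMT1, DNMT3A and DNMT3B, the maintenance factor UHRF1, and the dioxygenases TET1, TET2 and TET3. They were taken by symbol from the deposited count table, where all 7 were found among 26334 genes. All 7 also passed the filter on low counts, which left 16117 genes for testing. RNA-seq was performed in MCF10DCIS.com (MCF10DCIS), a human breast cancer cell line with basal features that forms lesions resembling comedo ductal carcinoma in situ in mice. Control cells (shLuc, 3 libraries) expressed a hairpin against luciferase and silenced cells (shWDR5, 3 libraries) a hairpin construct against WDR5, the core WD40 subunit of histone H3 lysine 4 methyltransferase complexes. In both groups the hairpin was driven by the U6 promoter from a vector that also carried TagRFP and puromycin resistance under UbiC, and infected cells were selected with puromycin in DMEM/F12 with horse serum. Infected cells were thus a selected population of a single line. The labels name the second construct only as shWDR5, and the study used pooled hairpins against WDR5 in this line. Nothing in the labels ties a library to a separate culture, so p-values measure the spread between these libraries, which may be technical.

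DNMT1 copies the methylation pattern onto the new strand after replication. UHRF1 binds hemimethylated CpG sites and ubiquitylates histone H3, which brings DNMT1 to replicated DNA. DNMT3A and DNMT3B place methyl groups on unmethylated sites, and their histone-reading domain binds H3 that lacks lysine 4 methylation. The TET enzymes oxidise 5-methylcytosine in reactions that need 2-oxoglutarate and iron, and the oxidised base is then lost by replication or excised and repaired. Methylation itself was not measured in these libraries, which hold poly-A mRNA only.

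Library depth ran from 38218108 to 57640167 counted reads. WDR5, measured first as a check on the labels, stood at 52.6, 48.5 and 51.4 CPM (counts scaled to the library total, here with TMM factors) in shLuc and 23.4, 24.4 and 20.8 in shWDR5. Its log2 fold change was -1.153 (SE 0.0737, adjusted p = 8.67e-07), and no silenced library reached the controls. The breast epithelial markers were all detected, with summed levels of 9390 to 9620 CPM in shLuc and 11600 to 12500 in shWDR5. They went both ways: 5 rose, among them KRT17 (2160 to 4130 CPM) and KRT5 (820 to 1550), and 2 fell, CDH1 (496 to 242) and EPCAM (283 to 225). Summed markers of fibroblasts (21.6 to 23.7 against 14.9 to 17.8 CPM), immune cells (13.1 to 15.6 against 13.1 to 15.1) and endothelium (7.81 to 8.45 against 5.31 to 6.02) were low. These sums came mostly from COL1A1 (22.1 and 15.6 CPM), CD68 (11.9 and 11.1) and PECAM1 (6.5 and 3.97). COL1A1 (log2 fold change -0.50, adjusted p = 0.000438) and PECAM1 (-0.71, 5.65e-05) were called lower, and no other tested marker of these cell types was called. LUM and CD3E were at 0 in every library. Replicate 1 of each group lay farther from the other libraries of its group than those lay from each other, and leaving out both left 6 of the 7 genes called.

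The 7 genes lie on 5 chromosomes (hg19, as in the count table). On the minus strand are DNMT1 at chr19:10244022-10305755 (41 merged exons) and DNMT3A at chr2:25455830-25565459 (26 exons). The plus strand holds UHRF1 at chr19:4903092-4962165 (19 exons), DNMT3B at chr20:31350191-31397162 (24 exons), TET1 at chr10:70320117-70454239 (12 exons), TET2 at chr4:106067032-106200960 (11 exons) and TET3 at chr2:74213531-74335302 (11 exons). Counted values cover exons only. None of the 7 shared an exonic base with another gene of the table. TET2 was overlapped by its antisense gene TET2-AS1, DNMT3A by MIR1301 and UHRF1 by MIR4747, each outside the exons.

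In shWDR5 cells, the maintenance pair DNMT1 and UHRF1 fell, as did DNMT3B and the weakly expressed TET1. TET2 and TET3 rose, and DNMT3A did not pass the test. DNMT1 fell by 33.8%, UHRF1 fell by 28.6% and DNMT3B fell by 41.2%, while TET2 was 30.8% and TET3 20.1% higher. Thus 6 of the 7 were called at an adjusted p under 0.05, 4 lower and 2 higher. These counts stand against a broad response: 56.5% of all genes tested were called, 29.9% lower and 26.6% higher, so a call by itself does not set a member apart. The split by direction depended on the scaling, with 4291 genes higher and 4821 lower here, 3705 and 5498 with library totals alone, and 4663 and 4390 with upper-quartile factors. CPM of the groups did not overlap for 6 of the 7 genes, against 62.3% of all genes tested. The criteria of the study for its own gene lists were an adjusted p under 0.05, an absolute log2 fold change of at least 0.6 and over 0.5 RPKM. Here the RPKM limit was applied to the higher group mean. Of genes tested 18.4% met these criteria, and DNMT3B was the only member to pass. It cleared the RPKM limit through shLuc alone, at 0.685 RPKM against 0.403 in shWDR5.

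**Figure D1:**
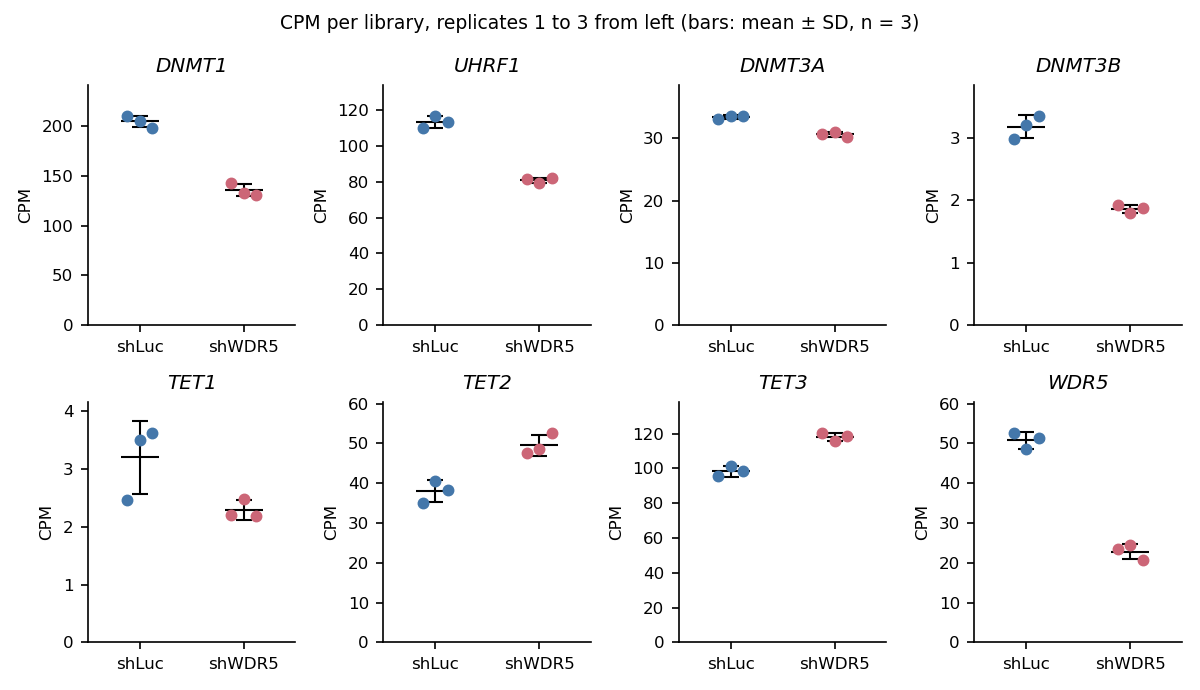
CPM (vertical axis, from 0) of the 7 genes and of WDR5 in each library, shLuc in blue and shWDR5 in red, with mean and SD of 3 libraries. The 3 shWDR5 libraries lie below all shLuc libraries for DNMT1, UHRF1, DNMT3A and DNMT3B and above them for TET2 and TET3, and the groups overlap only for TET1.

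The control regions of 4 members are shown, because DNMT1 and UHRF1 both fell and TET2 and TET3 both rose. Each sequence holds the 250 bases before an annotated transcript start, from RefSeq on GRCh38.p14 (all 7 genes matched by symbol), written 5′ to 3′ on the strand of the gene. Capitals mark matches on either strand to TTTCCCGC or TTTGGCGC (both E2F-type sites), CCAAT (the NF-Y box), CACGTG (the E-box bound by MYC and MAX among others) and GGGCGG (the GC box). Which start these cells used was not measured.
DNMT1 (chr19:10194954-10195203, minus strand): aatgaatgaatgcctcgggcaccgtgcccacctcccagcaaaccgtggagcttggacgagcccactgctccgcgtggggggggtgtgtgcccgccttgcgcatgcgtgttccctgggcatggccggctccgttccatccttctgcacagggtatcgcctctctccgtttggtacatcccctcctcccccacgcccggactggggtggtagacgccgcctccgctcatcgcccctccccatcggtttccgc
UHRF1, first of 3 starts (chr19:4909251-4909500, plus strand): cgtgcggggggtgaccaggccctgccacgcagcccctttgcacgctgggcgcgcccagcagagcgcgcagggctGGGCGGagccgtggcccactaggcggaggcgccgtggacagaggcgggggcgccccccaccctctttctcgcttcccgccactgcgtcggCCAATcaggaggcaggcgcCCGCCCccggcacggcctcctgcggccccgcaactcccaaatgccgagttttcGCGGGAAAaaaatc
TET2, first of 2 starts (chr4:105145625-105145874, plus strand): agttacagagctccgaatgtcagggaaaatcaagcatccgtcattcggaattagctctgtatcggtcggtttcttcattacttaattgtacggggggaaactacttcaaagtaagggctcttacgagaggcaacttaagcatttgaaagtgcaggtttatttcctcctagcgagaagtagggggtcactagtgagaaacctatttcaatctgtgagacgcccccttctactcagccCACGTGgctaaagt
TET3, first of 2 starts (chr2:73984660-73984909, plus strand): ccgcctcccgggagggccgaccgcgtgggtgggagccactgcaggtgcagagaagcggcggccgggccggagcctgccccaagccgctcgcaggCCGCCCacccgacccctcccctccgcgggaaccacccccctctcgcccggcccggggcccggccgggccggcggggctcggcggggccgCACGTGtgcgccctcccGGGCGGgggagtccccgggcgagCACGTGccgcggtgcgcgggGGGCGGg

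The UHRF1 window held a TTTCCCGC match on the opposite strand, beginning 14 bases before the start. This octamer was found in 1.39% of 35116 windows of the same length, and in no other window of the 7 genes. The DNMT1 window held none of the 5 motifs. CACGTG, present in 6.34% of all windows, was found 14 bases before the start of this TET2 transcript and at 67 and 27 bases before that of TET3. The second window of each of these genes held no CACGTG. This motif was also found in 2 of the 6 windows of DNMT3A, which did not pass the test. These 2 windows overlap and hold the same site. CCAAT, in 32.0% of windows, was in windows of UHRF1, TET1, TET3 and DNMT3B. The single DNMT3B window (chr20:32779602-32779851) held it 113 bases before the start. Whether this window lies at the first exon of DNMT3B, given above on hg19, was not checked. TTTGGCGC, in 0.55% of windows, was in none of the 7 genes' windows, and GGGCGG, in 42.6%, was in windows of UHRF1, DNMT3A, TET2 and TET3. By CpG content the windows ran from 3 sites (this DNMT3B window) through 21 (DNMT1) to 41 (the third UHRF1 start), where the median of all windows was 11.

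To compare levels between genes, counts were divided by exon length (RPKM). In shLuc, DNMT1 was highest at 37.9 RPKM ± 1.09 (SD, n = 3), followed by UHRF1 at 21.8 ± 0.663, TET3 at 8.65 ± 0.274, DNMT3A at 5.91 ± 0.0519, TET2 at 2.48 ± 0.18, DNMT3B at 0.685 ± 0.0403 and TET1 at 0.334 ± 0.0661. The order was identical in shWDR5, from DNMT1 at 25.1 ± 1.14 RPKM through UHRF1 at 15.6 ± 0.264 and TET3 at 10.4 ± 0.207 to TET1 at 0.239 ± 0.0174. In each group, libraries of neighbouring genes in this order did not overlap. DNMT1 thus lay above 86.6% of the genes tested in mean RPKM, while DNMT3B lay above 19.1% and TET1 above 12.2%.

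DNMT1 was counted at 210.3, 205.2 and 198.5 CPM in shLuc and at 142.6, 133.2 and 130.9 CPM in shWDR5. The 3 silenced libraries were all below the controls, with a difference in means far larger than the SD within either group (5.91 and 6.15 CPM). The log2 fold change was -0.59 (SE 0.055, 95% interval -0.72 to -0.47, adjusted p = 9.16e-06), just short of the 0.6 that the study required. UHRF1 was at 109.8, 116.7 and 113.2 CPM in shLuc and at 81.3, 79.4 and 82.0 CPM in shWDR5. Again the groups were apart, and the log2 fold change was -0.49 (SE 0.0524, 95% interval -0.60 to -0.37, adjusted p = 2.64e-05). UHRF1 per DNMT1, a ratio of levels per length, was 0.575 ± 0.0283 in shLuc and 0.621 ± 0.0293 in shWDR5, and the groups met at 0.592. This ratio of the maintenance pair was not tested.

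Of the de novo enzymes, DNMT3B was called and DNMT3A was not, and the difference between them was not tested. DNMT3A, the more abundant of the pair, stood at 33.1, 33.6 and 33.6 CPM in shLuc and 30.8, 31.1 and 30.2 CPM in shWDR5. The groups did not overlap, but the log2 fold change of -0.12 (SE 0.057, 95% interval -0.25 to 0.00) did not pass, with an adjusted p of 0.0881. When the replicate number was added to the model as a block, the same log2 fold change passed, at an adjusted p of 0.0388. DNMT3B rested on few reads, 124 to 147 in shLuc and 85 to 102 in shWDR5. Its CPM values were 2.98, 3.198 and 3.35 in shLuc and 1.92, 1.80 and 1.88 in shWDR5, fully apart, with a log2 fold change of -0.77 (SE 0.11, 95% interval -1.01 to -0.52, adjusted p = 0.000185). This was the lowest fold change among the 7, and 8.06% of genes tested were lower. DNMT3A per DNMT3B, as a ratio of levels per length, was 8.63 ± 0.445 in shLuc and 13.5 ± 0.589 in shWDR5.

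**Figure D2:**
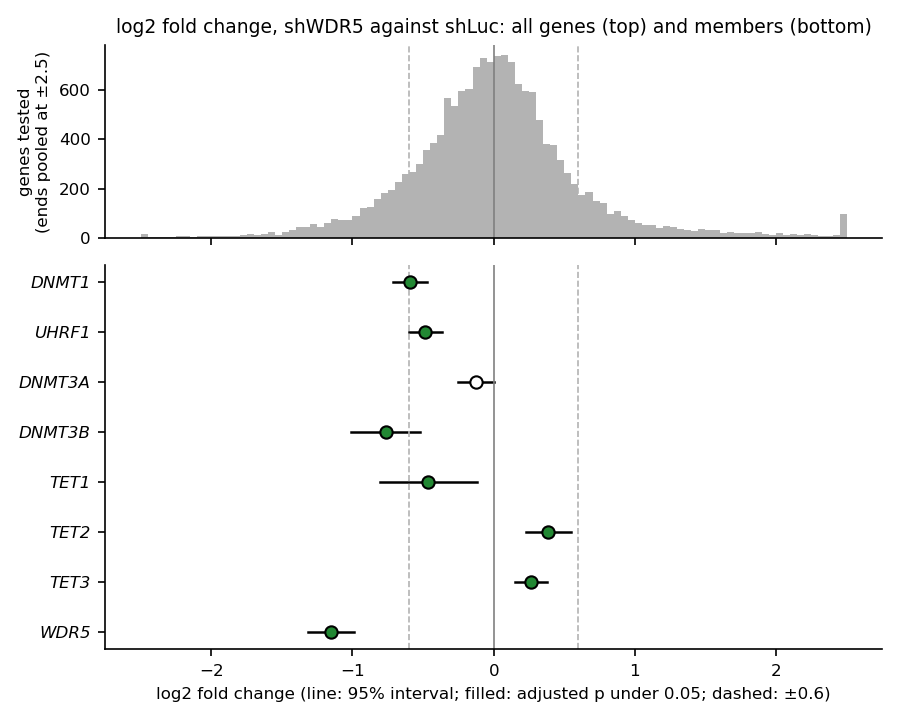
Log2 fold change of shWDR5 against shLuc, as a histogram over all 16117 genes tested (top) and for each of the 7 genes and WDR5 with its 95% interval (bottom), filled where the adjusted p was under 0.05. Dashed lines mark ±0.6 and the histogram pools values past its ends. The interval of DNMT3A reaches 0, those of TET2 and TET3 lie above it and those of the other members below it.

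TET1, best known from embryonic stem cells and the germ line, was the least expressed member. It was counted at 122, 136 and 146 reads in shLuc and at 102, 141 and 99 in shWDR5, or 2.47, 3.51 and 3.62 against 2.20, 2.48 and 2.18 CPM. The lowest control library (replicate 1) lay within the range of the silenced ones. TET1 passed with a log2 fold change of -0.465 (SE 0.155, 95% interval -0.81 to -0.12, adjusted p = 0.0254), and this call rested on single libraries. It was lost without shLuc replicate 2 (-0.40, adjusted p = 0.0841), shLuc replicate 3 (-0.365, 0.102), shWDR5 replicate 1 (-0.44, 0.0609) or shWDR5 replicate 3 (-0.43, 0.0646). It passed without replicate 1 of both groups, at -0.59 with an adjusted p of 0.00451.

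TET2 and TET3 went the other way. TET2 was at 35.01, 40.5 and 38.4 CPM in shLuc and at 47.6, 48.6 and 52.6 CPM in shWDR5. All silenced libraries were above all controls, and the log2 fold change was 0.39 (SE 0.0713, 95% interval 0.23 to 0.55, adjusted p = 0.000959). TET3, the main TET gene by level in this line, was at 95.4, 101.6 and 98.5 CPM in shLuc and at 120.3, 115.7 and 118.8 CPM in shWDR5. The groups were apart here too, with a log2 fold change of 0.26 (SE 0.0524, 95% interval 0.15 to 0.38, adjusted p = 0.00154). Of the genes tested, 80.6% had a lower fold change than TET2 and 73.4% a lower one than TET3.

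Each family was led by the same gene in all 6 libraries. DNMT1 made up 85.2% ± 0.53 (SD, n = 3) of summed DNMT RPKM in shLuc and 81.2% ± 0.61 in shWDR5. DNMT3A went from 13.3% ± 0.4 to 17.5% ± 0.6, and DNMT3B remained under 2% in every library. TET3 held 75.5% ± 1.1 and 74.9% ± 1 of summed TET RPKM, within the spread, TET2 21.6% ± 0.62 and 23.4% ± 1, and TET1 2.9% ± 0.48 and 1.72% ± 0.16. The DNMT sum per TET sum was 4.16, 3.74 and 3.77 in shLuc and 2.32, 2.25 and 2.13 in shWDR5. All silenced libraries were lower in this ratio, which combines changes already given and was not tested.

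**Figure D3:**
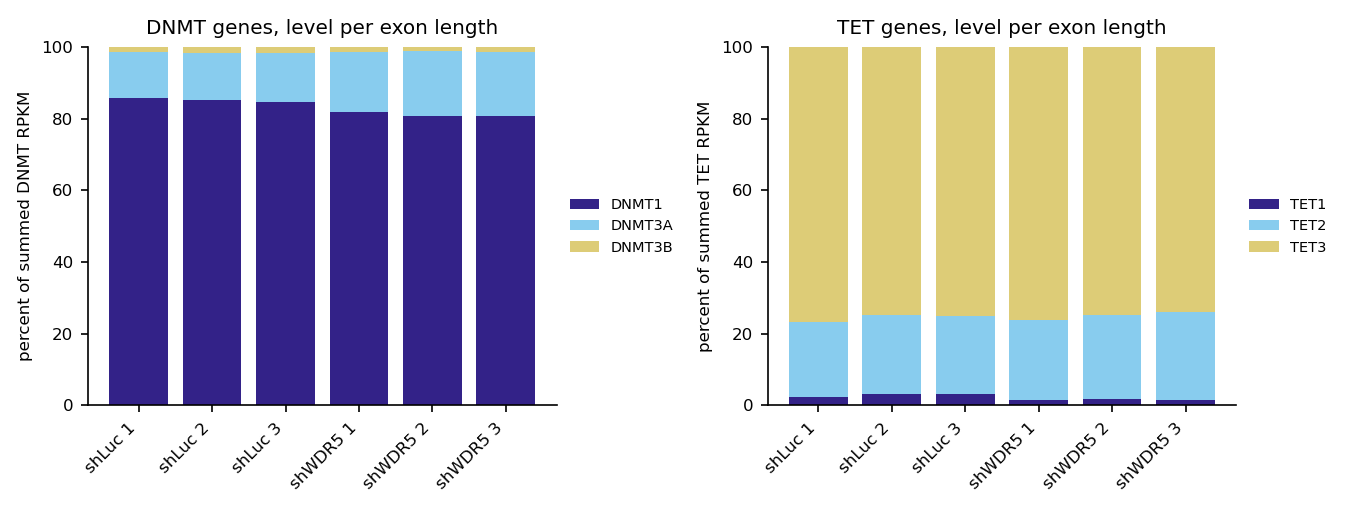
Share of each gene in the summed RPKM of its family (vertical axis, percent) in each library, DNMT genes on the left and TET genes on the right. DNMT1 fills 84.7% to 85.7% of the DNMT bar in shLuc and 80.8% to 81.9% in shWDR5, and TET3 fills 74.0% to 76.7% of the TET bar throughout.

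Genes whose profile over the 6 libraries was most like that of a member were sought by the root mean square difference between centred log2 CPM values among 16088 genes, a measure driven mostly by the difference between groups. For DNMT1 these were TTC31, WIPI2 and CDCA3, with differences of 0.012 to 0.0173. UHRF1 was closest to GPATCH8, ZBTB43 and PLD1 (0.0193 to 0.0234). DNMT3A was closest to PSME4, DARS and IVNS1ABP (0.0152 to 0.0159), and DNMT3B to COQ2, AGO1 and VSIG10 (0.0273 to 0.0439). TET3 was closest to SLC23A2, UNC93B1 and ZSCAN26 (0.00959 to 0.0178), and TET2 to ZCCHC2, ZFP36L1 and PDK1 (0.0212 to 0.0305). The nearest genes to TET1, SPATA6, ESRRG and CASP8AP2, were less near (0.0796 to 0.0851). No member was among the 3 nearest of another.

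Other genes were taken from 10 lists, which cover DNA methylation, germline and imprinted genes, and the cell cycle. Of 130 genes 109 were tested, 62 called lower and 17 higher. The S phase list gave 13 of the lower calls and 1 of the higher, and the G2 and mitosis list 14 and 0. The 79 calls became 88 with the replicate block and 80 without replicate 1 of both groups. Calls over all genes went from 9112 to 10412 and 8980 under the same settings. Over all genes tested 29.9% were called lower and 26.6% higher, and the counts of each list are to be read beside these shares. The median log2 fold change of all genes tested was -0.01. Among 11 partners of DNMT1 in maintenance, 7 fell and 3 rose, with a median of -0.51. CDCA7, which recruits the remodeller HELLS, fell from 35.1 ± 2.6 to 19.4 ± 1.9 CPM (log2 fold change -0.855, adjusted p = 1.89e-05). HELLS, which opens nucleosomal DNA to methylation, fell from 38.4 ± 5.7 to 24.7 ± 4.1 CPM (-0.63, 0.00214). The replication clamp PCNA, which tethers DNMT1 to the fork, fell by 0.60 on the log2 scale (adjusted p = 2.19e-05), and the H3 lysine 9 methyltransferase SUV39H1 fell by 0.64 (0.000106). The 3 that rose were USP7 (0.21, 0.00502), a deubiquitinase of UHRF1 and DNMT1, and the H3 lysine 9 methyltransferases EHMT1 (0.40, 9.14e-05) and EHMT2 (0.26, 0.00284). UHRF2, the paralog of UHRF1, had a log2 fold change of 0.03 (SE 0.056) and an adjusted p of 0.63.

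Among 10 further DNMT relatives and regulators, 9 were tested, 2 rose and 2 fell, with a median of -0.06. ZFP57, a zinc finger protein that keeps methylation at imprinted loci, was at 0.923 ± 0.14 CPM in shLuc and 4.76 ± 0.37 CPM in shWDR5, a log2 fold change of 2.35 (SE 0.137, adjusted p = 5.36e-07). Its partner TRIM28 rose by 0.20 (adjusted p = 0.0176), a call lost under another scaling (0.0573). NSD2, listed under its older symbol WHSC1, and NSD3, listed as WHSC1L1, both H3 lysine 36 methyltransferases, fell by 0.87 (8.44e-07) and 0.27 (0.00144) on the log2 scale. DNMT3L, the inactive cofactor of the de novo enzymes, had at most 1 read per library and was not tested.

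The list of methyl-CpG readers holds MBD and zinc finger proteins, of which MBD3 belongs to the family by its domain but does not bind methylated CpG selectively. Of 8 genes, 2 rose and 1 fell, with a median of 0.08, a smaller share called than the 56.5% of all genes. ZBTB4 rose by 0.30 (adjusted p = 0.00106) and MBD3 by 0.28 (0.00469), and MBD2 fell by 0.15 (0.0295), which did not hold under every scaling (0.103). With the replicate block, which called 10412 of all 16117 genes, 6 of the 8 passed. MBD1 (adjusted p = 0.0424) and ZBTB38 (0.0164) were among those gained.

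On the removal side, 7 of 13 genes listed for repair of oxidised methylcytosine fell and 3 rose, with a median of -0.385. The list also holds general repair and stress-response genes. NEIL2 (-0.90, adjusted p = 1.23e-05) and SMUG1 (-0.75, 2.01e-05), glycosylases that excise altered bases, fell, as did the repair scaffold XRCC1 (-0.64, 2.05e-05). GADD45A, a stress-response gene also linked to demethylation, rose from 40.3 ± 0.46 to 69.9 ± 3.1 CPM (0.79, 1.86e-06), and NEIL1 (0.58, 0.000211) and APEX1 (0.16, 0.0282) rose too. The calls of NEIL1 and APEX1 were not examined under other scalings. TDG, the glycosylase that removes oxidised methylcytosine, had a log2 fold change of 0.16 that did not pass in the main fit (adjusted p = 0.167). It passed with the replicate block (0.0051), and other settings were not examined for this gene. Among 14 genes listed as TET partners or for 2-oxoglutarate metabolism, 8 fell and 3 rose (median -0.31). The list also holds enzymes of fumarate and succinate, such as FH. IDH2, which makes 2-oxoglutarate in mitochondria, fell by 0.68 (1.43e-05), fumarase FH by 0.65 (6.2e-06) and IDH3A by 0.40 (0.00113), whereas IDH3G rose by 0.44 (0.000956). OGT, which binds TET2 and TET3, had a log2 fold change of 0.03 (adjusted p = 0.684).

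In the list for the S-adenosylmethionine cycle, which supplies the methyl group, 4 of 8 genes fell and 1 rose (median -0.18). AHCYL1, an AHCY-like gene rather than AHCY itself, fell from 193 ± 0.77 to 108 ± 3.9 CPM (-0.84, adjusted p = 6.82e-07). MAT1A (-0.39, 0.00497), MTR (-0.38, 0.000291) and MTRR (-0.20, 0.0255) were lower too, the last not under every scaling (0.0542). MAT1A stood at only 4.37 CPM in shLuc and 3.34 CPM in shWDR5. MAT2A, far higher at 371 ± 8.3 and 374 ± 6.4 CPM, had a log2 fold change of 0.01 (adjusted p = 0.857). AHCY, which clears the inhibitory product of methylation, rose (0.18, 0.0259), a call not examined under other scalings. With the replicate block the AHCY-like AHCYL2 (0.15, adjusted p = 0.0212 against 0.0508 without it) and MAT2B (-0.15, 0.0216 against 0.149) passed as well.

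**Figure D4:**
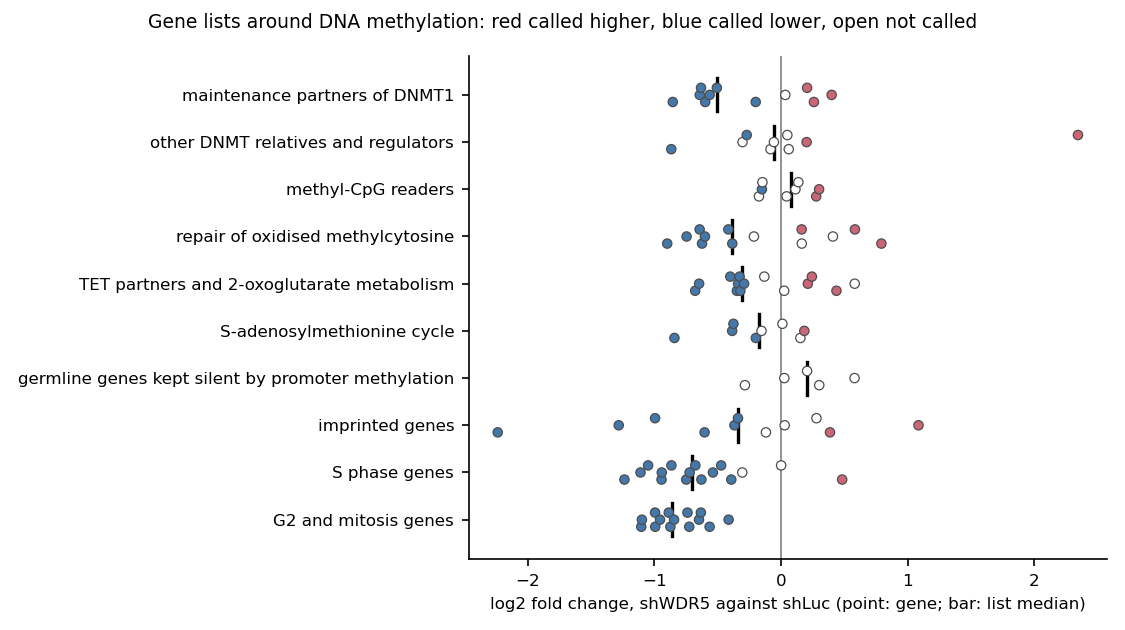
Log2 fold change (horizontal axis, shWDR5 against shLuc) of each tested gene in 10 lists, with the list median as a bar. All 14 genes of G2 and mitosis and 13 of 16 S phase genes lie to the left as called lower, while none of the 5 tested germline genes was called.

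Germline genes that somatic cells usually hold silent by promoter methylation had few reads in both groups. Of 20, 5 passed the filter and 0 were called by the quasi-likelihood test of edgeR (0 at an unadjusted p under 0.05). DESeq2, limma-voom and the edgeR exact test also called 0, with lowest adjusted p of 0.426, 0.276 and 0.26. A further 6 had no read in any library, and the summed level was 3.26 to 3.56 CPM in shLuc and 3.18 to 4.12 CPM in shWDR5. PIWIL2 was at 1.33 ± 0.14 and 1.35 ± 0.15 CPM, and TEX101 at 0.608 ± 0.087 and 0.762 ± 0.15 CPM. MAGEA3, MAGEA6 and MAGEA12 belong to a family of near-identical genes, whose reads the counting may have split or dropped. Of 16 imprinted genes, 11 were tested, 6 fell and 2 rose (median -0.34). CDKN1C, a CDK inhibitor, fell from 0.813 ± 0.19 to 0.169 ± 0.022 CPM (-2.24, adjusted p = 7.31e-05), and DIRAS3 (-1.28, 0.00501) and the noncoding H19 (-0.995, 2.46e-05) fell as well. The largest library count was 40 reads for CDKN1C and 19 for DIRAS3. GRB10, a receptor adaptor, rose from 14.2 ± 0.64 to 30.2 ± 2.2 CPM (1.09, 1.54e-06). Imprinted IGF2, PEG3, SNRPN, ZIM2 and DLK1 had no read in any library, and the first 4 share exonic bases with another gene in the table.

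DNMT1 and UHRF1 are transcribed mainly in cycling cells, so replication and mitosis genes are given beside them. Of 16 S phase genes 13 fell and 1 rose, with a median of -0.70, and the summed level went from 1650 to 1700 CPM in shLuc to 967 to 1030 CPM in shWDR5. MCM5 (-1.24, adjusted p = 1.8e-07), MCM6 (-1.11, 7.71e-07), RRM1 (-1.05, 2.52e-07) and CDC6 (-0.94, 1.51e-06) had lower log2 fold changes than DNMT1 and UHRF1, while CCNE1 rose (0.48, 0.000987). All 14 genes of G2 and mitosis fell (median -0.86), from 2340 to 2420 CPM summed to 1270 to 1290 CPM. CENPF (-1.10, 1.59e-07), MKI67 (-1.10, 1.8e-07), CCNA2 (-0.995, 3.21e-06) and BUB1B (-0.99, 3.17e-07) led these. In bulk RNA, fewer cycling cells and less RNA of these genes per cell cannot be told apart, and their part in the changes of DNMT1, UHRF1 and DNMT3B was not tested.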

How the data were processed

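Poly-A RNA libraries of 6 MCF10DCIS samples were compared. The authors aligned reads with TopHat2 2.1.0 to hg19 and counted them per gene with featureCounts, and these deposited counts are raw, with 1 column per library. The annotation release and strand setting are not given in the sources used here. A second deposited table holds fold changes and p-values from the authors' own edgeR comparison and was not used.

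Counts were filtered with filterByExpr, scaled by TMM and tested with the quasi-likelihood test of edgeR 4.0.16 (R 4.3.3), group as the only term, with p-values adjusted by Benjamini-Hochberg over all 16117 genes. SE was derived from the fold change and F statistic. CPM and RPKM used TMM-scaled library sizes and the exon length in the table. The fits were tested on simulated data with 200 changed genes and no replicate effect. So few changed genes cannot show how the scaling behaves under a response as broad as the one here. Members and lists were chosen with earlier results of these data known, and 17 alternatives were tried. NSD2 and NSD3 were matched through RefSeq synonyms. Named were all members, up to 4 called genes per list by fold change (the 2 highest by CPM where fewer than 2 were called), the 3 nearest profiles per member and overlapping genes. Others named in the text were chosen after their values were seen. These were DNMT3L, TDG, MBD1, ZBTB38, USP7, EHMT1, EHMT2, UHRF2, NEIL1, APEX1, OGT and AHCY. AHCYL2, MAT2A, MAT2B, CCNE1, the cell type markers and genes without reads were also among them.

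Replicate numbers are shared between groups. Deviations from group means over 9459 genes correlated at 0.84, 0.14 and 0.37 for same-numbered libraries. However, shLuc replicate 2 correlated better with shWDR5 replicate 3 (0.67), and shLuc replicate 3 correlated at 0.33 with shWDR5 replicate 2. Whether the numbers pair the libraries beyond replicate 1 is thus not settled, and the block was used only as an alternative to the main fit.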

Additional observations from a re-analysis of the deposited data

How the results depend on the processing

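No member changed direction under any of 17 alternatives (3 scalings, 2 filters, DESeq2 1.42.0, limma-voom 3.58.1, the edgeR exact test, the replicate block, each library left out, both first replicates left out, and the criteria of the study). The alternative without both first replicates was chosen after seeing the data. Adjusted p stayed at or below 0.000152 for DNMT1, 0.000387 for UHRF1, 0.00147 for DNMT3B, 0.00547 for TET2 and 0.00711 for TET3. DNMT3A passed with library totals alone (-0.18, adjusted p = 0.0183), which moved the median of all genes to -0.07, and with the replicate block (-0.12, adjusted p = 0.0388), its range being 0.0183 to 0.265. The block changed no other member's call and raised the calls over all genes to 10412. TET1 ranged from -0.62 to -0.365 when 1 library was left out, and 4 of these 6 fits lost its call. Under the criteria of the study 2962 genes passed, 1274 higher and 1688 lower, with 1 member. DNMT1 (-0.59), UHRF1 (-0.49), TET1 (-0.465), TET2 (0.39) and TET3 (0.26) fell short of 0.6 there. DNMT3B and TET1 rest on 85 to 147 reads per library, which limits their precision.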

Other observations

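Fold change varied with exon length over all genes tested, a pattern examined after the data were seen. The median log2 fold change was 0.04 in 4201 genes of up to 2 kb and -0.07 in 453 genes of over 10 kb, of which 23.2% were called higher and 36.6% lower. TET2 (15321 exonic bases) and TET3 (11387) belong to this longest class and were among those called higher, at 0.39 and 0.26 on the log2 scale.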
